A study of Mus musculus with 2 samples.

Results

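Joined domains are stretches of the mouse genome in which H3K4me1 peaks, those the authors kept as replicated, follow each other with no gap of more than 1 kb. Peaks on chromosomes 1 to 19 were joined in this way, and the domains described here were chosen by their width on the replicated list, at least 20 kb. There were 991 of them among 108652 joined domains, which is 0.912%. They held 12738 of 222570 autosomal replicated peaks (5.72%), 11.1% of all joined bases and 1.21% of the autosomes. H3K4me1 had been mapped by chromatin immunoprecipitation and sequencing in 2 biological replicates of E14TG2a.4 cells, a 129/Ola embryonic stem cell line of the mouse, male and with a labelled age of 3.5 day embryonic. Both replicates carry the same labels and form the only group, no control or other condition was analysed here, and both come from 1 cell line. The labels do not say how the cultures were kept apart. With 1 group there is no test between groups, and all values below are descriptions of these peak lists. Positions are on mm10 (GRCm38), counted from 1.

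H3K4me1 is the addition of a single methyl group to lysine 4 of histone H3. The MLL3 and MLL4 methyltransferases place much of it, and it is known from enhancers, where it can be present whether or not the enhancer is active, and from the flanks of promoters. At the start of an active CpG-rich promoter the same lysine is usually trimethylated (H3K4me3), and H3K4me1 lies to either side. In embryonic stem cells wide runs of H3K4me1 are known from clustered enhancers near genes of cell identity.

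The sequences below show where the start of a gene fell within its domain. A transcription start site (TSS) is here the 5′ end of the RefSeq gene record, and a domain consists of peaks separated by internal gaps. Cd9, Dnm2 and Tfcp2l1 have their TSS in an internal gap, of 738 bp, 866 bp and 567 bp. Gcnt2 and Fgr have theirs inside a peak. Each line gives the 250 bases before the start in the RefSeq promoter table on GRCm38.p6, which lies within 100 bp of the gene record's 5′ end, read 5′ to 3′ on the strand of the gene, with every CG dinucleotide in capitals.
Cd9: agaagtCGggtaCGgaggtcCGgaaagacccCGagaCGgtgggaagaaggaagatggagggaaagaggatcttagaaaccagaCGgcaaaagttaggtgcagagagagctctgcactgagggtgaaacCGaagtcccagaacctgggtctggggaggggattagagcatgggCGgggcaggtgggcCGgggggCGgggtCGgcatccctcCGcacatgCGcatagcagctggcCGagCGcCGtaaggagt
Dnm2: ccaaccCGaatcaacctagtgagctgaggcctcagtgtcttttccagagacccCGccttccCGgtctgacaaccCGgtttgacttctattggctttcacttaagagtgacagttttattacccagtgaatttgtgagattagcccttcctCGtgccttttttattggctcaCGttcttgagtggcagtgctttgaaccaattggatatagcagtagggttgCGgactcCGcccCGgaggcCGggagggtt
Tfcp2l1: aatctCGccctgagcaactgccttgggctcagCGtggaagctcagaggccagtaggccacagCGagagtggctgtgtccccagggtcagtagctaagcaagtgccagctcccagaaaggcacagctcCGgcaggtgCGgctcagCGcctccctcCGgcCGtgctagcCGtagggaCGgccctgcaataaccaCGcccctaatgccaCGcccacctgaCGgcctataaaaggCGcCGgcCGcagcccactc
Gcnt2: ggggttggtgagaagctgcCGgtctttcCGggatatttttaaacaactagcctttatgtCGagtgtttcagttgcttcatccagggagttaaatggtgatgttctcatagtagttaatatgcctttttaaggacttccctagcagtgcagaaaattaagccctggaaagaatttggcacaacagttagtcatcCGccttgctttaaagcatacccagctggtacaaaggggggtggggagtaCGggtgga
Fgr: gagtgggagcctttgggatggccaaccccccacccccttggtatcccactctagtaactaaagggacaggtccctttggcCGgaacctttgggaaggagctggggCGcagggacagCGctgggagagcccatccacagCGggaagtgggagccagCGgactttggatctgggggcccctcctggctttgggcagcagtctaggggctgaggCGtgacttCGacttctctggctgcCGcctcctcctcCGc
The first 3 stretches lie at chr6:125494761-125495010 on the minus strand, chr9:21424658-21424907 on the plus strand and chr1:118627695-118627944 on the plus strand, and hold 16, 10 and 16 CG. The Gcnt2 stretch at chr13:40859518-40859767 and the Fgr stretch at chr4:132973845-132974094, both on the plus strand, hold 5 and 9. Per expected CG, from the C and G content of each stretch, the observed to expected CpG ratios were 0.761, 0.611 and 0.609 with the TSS in a gap, and 0.403 and 0.348 with the TSS in a peak.

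This split held over the promoters that could be read. Of the 506 protein-coding TSSs inside domains, 294 (58.1%) lay in an internal gap, although gaps made up 11.0% of the bases of the domains. A promoter sequence starting within 100 bp of the TSS was found for 296 of the 506 genes, 208 with the TSS in a gap and 88 with it in a peak. An observed to expected CpG ratio of at least 0.6 was reached by 149 of 208 gap promoters (71.6%) and by 11 of 88 peak promoters (12.5%), against 44.6% of the 12678 promoters read over all genes. The median number of CG in 250 bases was 16 in the gap promoters, with quartiles of 12 and 22, and 5 in the peak promoters, with quartiles of 3 and 9. Narrower joined domains showed the same split, with 73.3% against 18.4% at widths of 10 to 20 kb and 70.8% against 14.9% at 5 to 10 kb, so it is not particular to the widest domains. A TATAAA hexamer, on either strand and counted without regard to other motifs, was in 7.77% of the 296 promoters and in 14.1% of all promoters of this length.

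Gaps that held a TSS were also wide. The 11747 internal gaps had a median width of 184 bp, 23.0% were under 100 bp and 17.7% over 500 bp. The 279 gaps holding a TSS had a median of 686 bp, with quartiles of 519 and 844 bp, and the 11468 others a median of 180 bp, with quartiles of 103 and 367 bp. The replicates filled these gaps unequally. Peaks of replicate 1 covered 6.28% of the bases of gaps with a TSS and peaks of replicate 2 covered 0.281%, whereas in gaps without a TSS the values were 6.56% and 7.32%. Joined domains of 5 to 10 kb showed the same, with medians of 660.5 bp with a TSS and 211 bp without. There, peaks of replicate 1 covered 7.63% of the bases of gaps with a TSS and peaks of replicate 2 covered 0.446%. A wide gap also has more room for a TSS. The gap widths are bounded at 1000 bp by the joining rule, so a wider gap at a TSS ends a domain there.

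**Figure D1:**
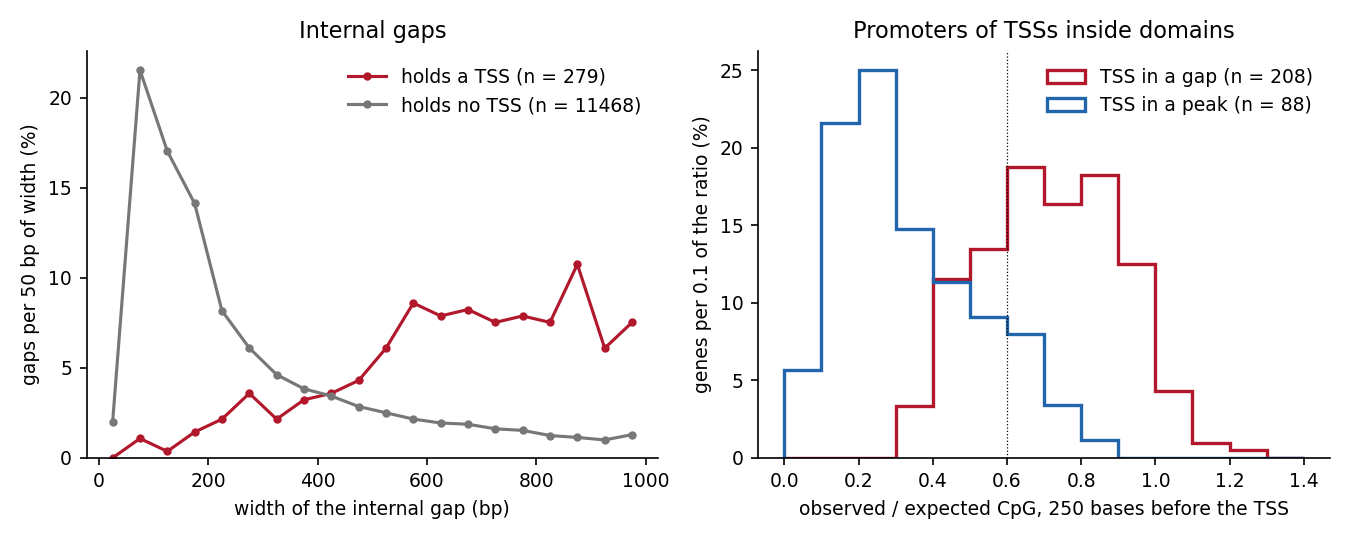
Left, widths of internal gaps in bp against the percent of gaps per 50 bp, for 279 gaps that hold a TSS and 11468 that do not: the gaps with a TSS lie to the right. Right, observed to expected CpG ratio of the 250 bases before the TSS against the percent of genes, for 208 TSSs in a gap and 88 in a peak, with the 0.6 mark dotted.

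Width was the value that chose the domains, and it is given as a description. Domains ran from 20004 to 134961 bp with a median of 26040 bp and quartiles of 22411 and 33087 bp. There were 433 of 20 to 25 kb, 224 of 25 to 30 kb, 198 of 30 to 40 kb, 110 of 40 to 60 kb and 26 of at least 60 kb. The median domain held 12 peaks, with quartiles of 9 and 15. Just inside the limit lay domains at Ube2n and Nudt4 (20004 bp), Gse1 (20006 bp) and Wnt7b (20017 bp), and just outside it domains at Dagla (19990 bp), Grik3 (19987 bp) and Fbrsl1 (19980 bp). The limit therefore cuts through a continuous range of widths.

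**Figure D2:**
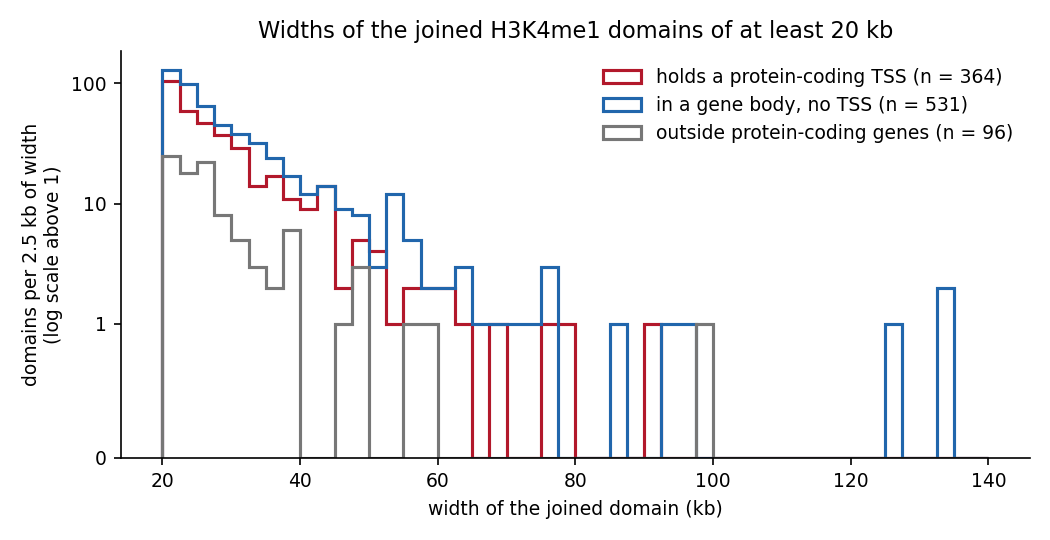
Width in kb of the 991 domains against the number of domains per 2.5 kb (log scale above 1), drawn separately for 364 domains that hold a protein-coding TSS, 531 in a gene body without a TSS and 96 outside protein-coding genes. All 3 curves fall from 20 kb on, and the 3 widest domains, above 120 kb, lie in gene bodies.

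The widest domain, 134961 bp at chr11:107334125-107469085, lay inside Pitpnc1, which encodes a phosphatidylinositol transfer protein. It started 1635 bp downstream of the TSS and took up 51.3% of the gene, and its 50 peaks covered it to 88.0% in replicate 1 and 90.05% in replicate 2. Nearly as wide was the domain in Jarid2, a cofactor of Polycomb repressive complex 2, with 134914 bp at chr13:44734266-44869179. It started 3492 bp past the TSS, took up 70.7% of the gene and was covered to 85.2% and 88.7%. The third, in the corepressor gene Ctbp2, spanned 127116 bp at chr7:132987860-133114975 and took up 92.8% of the gene. It was the most densely covered of the 3, at 94.9% and 96.1%, with 1.97% of its bases in gaps.

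The next domains by width were again mostly in gene bodies, at genes of chromatin and of the cytoskeleton. Tns3, a tensin of focal adhesions, held 96986 bp. Kat6b, a histone acetyltransferase, held 92551 bp starting 2207 bp past its TSS. Zmynd8, a chromatin reader, held 91236 bp, and its domain was the widest to include a TSS, with 3604 bp before it and 87632 bp after it. A domain of 78433 bp contained the TSS of Pigv but covered 93.5% of the neighbouring gene Arid1a, a subunit of the BAF chromatin remodelling complex. Among the widest 15 were also domains at Plekha7 (77104 bp), Macf1 (75945 bp), Cdyl (75720 bp), Gcnt2 (75381 bp), Zfp710 with Idh2 (73217 bp) and Ppp2r5c (71467 bp). Of these 15, 2 held a TSS other than that of Pigv, those of Zmynd8 and Gcnt2, and 1 lay outside protein-coding genes.

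A protein-coding gene was overlapped by 895 of the 991 domains (90.3%). This was 81.8% for joined domains of 10 to 20 kb and 73.0% for those of 5 to 10 kb. In 399 cases (40.3%) the domain lay wholly within a gene. By class, 364 domains (36.7%) held at least 1 TSS, 531 (53.6%) lay in a gene body without a TSS, and 96 (9.69%) touched no protein-coding gene. A wider stretch has more room for a gene, and per Mb of domain the order was the opposite: 17.0 TSSs per Mb at 20 kb or more, 25.2 at 10 to 20 kb and 31.6 at 5 to 10 kb. The share holding a TSS also followed the joining gap, at 13.4% of the domains joined across up to 500 bp and 63.7% of those joined across up to 2 kb. Joined from a single replicate list, it was 42.8% for replicate 1 and 27.1% for replicate 2. Of the 627 domains without a TSS, 207 (33.0%) ended within 2 kb of one, against 24.7% at 10 to 20 kb and 16.6% at 5 to 10 kb.

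Among the domains with a TSS, 267 held exactly 1. These lay mostly downstream of it, inside the transcribed side. The median domain had 77.8% of its length downstream, with 19147 bp after the TSS and 6470 bp before it, and 198 of 267 (74.2%) had more sequence downstream than upstream. In narrower domains the median downstream share was 69.1% at 10 to 20 kb and 65.9% at 5 to 10 kb. Over all bases of the 267 domains 67.8% were downstream, and this was 54.1% when gaps of up to 500 bp were joined. At Cd9, which encodes a tetraspanin of the cell surface, the domain had 13131 bp before the TSS and 54896 bp after it and ran past the gene, which is 34495 bp long. Dnm2, a dynamin of endocytosis, had 12113 bp before and 48515 bp after. Cdh1, which encodes E-cadherin, had 5678 bp before and 45282 bp after, with 91.1% of the domain in peaks of replicate 1 and 92.2% in those of replicate 2.

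The remaining 69 of the 267 domains did not have more sequence downstream, and in some of them the domain mainly covered a neighbour. The domain of 62520 bp at chr9:114498468-114560987 had 55511 bp upstream of the TSS of Ccr4, a chemokine receptor, and covered 93.6% of the adjacent Trim71, a pluripotency-associated RNA-binding protein. At Pigv, 77711 bp lay upstream of the TSS and 722 bp downstream. At Hspb8, a small heat shock protein, 35296 bp lay upstream and 16731 bp downstream. In all, 106 of the 267 domains (39.7%) passed the 3′ end of the gene whose TSS they held.

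Coverage around these 267 TSSs showed both the asymmetry and the dip at the TSS, in both replicates. Between 5 and 6 kb downstream, peaks covered 80.4% of bases in replicate 1 and 81.8% in replicate 2. Between 6 and 5 kb upstream the values were 57.4% and 55.2%. Over all genes they were 23.3% and 24.0% downstream, and 18.1% and 17.7% upstream. Close to the TSS coverage reached 90.3% and 85.4% at 500 to 400 bp upstream, fell to 33.2% and 27.8% at 100 to 200 bp downstream and returned to 89.1% and 83.1% at 1100 to 1200 bp downstream. The dip was wider in replicate 2, where 47.6% of bases at 500 to 600 bp downstream were in peaks, against 68.8% in replicate 1. These values are not independent of the rule, which joined peaks on either side of such gaps.

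**Figure D3:**
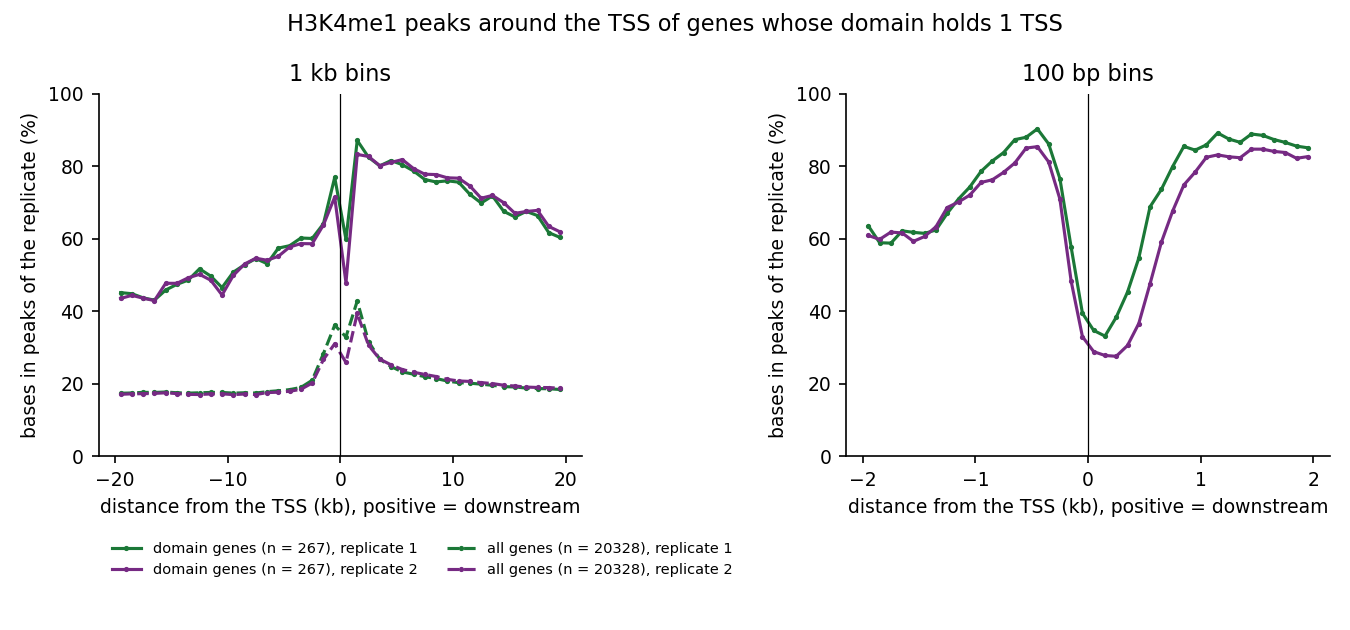
Percent of bases in the peaks of each replicate by distance from the TSS in kb, in 1 kb bins (left) and 100 bp bins (right), for 267 genes whose domain holds 1 TSS (solid) and for 20328 genes (dashed, left only). Beyond 1 kb from the TSS coverage is higher downstream than upstream, and it dips at the TSS in both replicates. In the first 1 kb, for the 267 genes, it is lower downstream, at 59.8% and 47.9% in replicates 1 and 2, against 76.9% and 71.5% upstream.

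Of the domains with a TSS, 97 held at least 2, and 3 held 5 each. One, at chr17:23664379-23685979, held the starts of Hcfc1r1, Thoc6, Tnfrsf12a, Cldn6 and Cldn9, which include a pair of claudins of the tight junction. It was covered to 93.3% in replicate 1 and 88.2% in replicate 2. Another, at chr17:35057564-35081944, held Ddah2, Mpig6b, Ly6g6c, Ly6g6e and Ly6g6d, with 82.1% and 80.8%. The last, at chr2:164813417-164841375, held Acot8, Zswim1, Spata25, Ctsa and Neurl2, with 84.1% and 85.1%.

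Domains in gene bodies lay in long genes. This follows in part from the width rule, since a longer gene has more room for a wide domain. For 523 of the 531 a host gene with a strand was found, and the median host was 83507 bp long, against 17491 bp for all 20661 autosomal protein-coding genes. The domain took up a median of 32.6% of its host. In 218 of 523 (41.7%) the nearer edge lay within 5 kb downstream of the TSS, and in 171 within 2 kb, as at Pitpnc1. At Tet1, a 5-methylcytosine dioxygenase, the domain began 2260 bp past the TSS and took up 77.1% of the gene. Others lay near the 3′ end. At Esrrb, an orphan nuclear receptor of the pluripotency network, the domain of 54016 bp began 111719 bp past the TSS and ran past the gene end. By the position of its centre, 113 domains lay in the first 25% of the gene, 167 between 25% and 50%, 144 between 50% and 75% and 99 beyond, 32 of them centred past the gene end. A further promoter of a protein-coding gene, other than the 5′ end of the record, was in 55 of the 605 domains without a TSS on chromosomes with promoter entries (9.09%).

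Single genes could hold several domains. Domains overlapped 1182 genes, and 93 of these overlapped 2 or more. Msi2, an RNA-binding protein of stem and progenitor cells, overlapped 5 domains of 24168 to 38036 bp that lay within 170821 bp and filled 92.6% of it. Gse1 overlapped 4, and Tns3 and Kat6b 3 each. By bases, Jarid2 was first with 163993 bp in 2 domains, 85.9% of the gene, followed by Tns3 with 158921 bp, Msi2 with 158161 bp and Kat6b with 147150 bp.

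Outside protein-coding genes the 96 domains had their nearer edge a median of 21266 bp from a TSS. In 23 it was within 2 kb and in 28 it was over 50 kb away, and 67 of the 96 overlapped a long non-coding RNA gene. A wide stretch has more room for such a gene, and no share over other stretches is given beside the 67. The widest, 99207 bp at chr15:62036160-62135366, lay 50819 bp from the TSS of Myc in the Pvt1 long non-coding RNA gene, and was 1 unbroken joined stretch in each replicate list, covered to 87.0% and 87.4%. The next were 58131 bp at 495 bp from Zfp217, 56885 bp at 70668 bp from Med13l, a Mediator subunit, 49599 bp at 29315 bp from Tfap2c, a transcription factor of germ cells and trophectoderm, and 48884 bp at 3098 bp from Tex44. Chosen after their values were seen, the domains nearest to genes of pluripotency included 46246 bp at 17702 bp from Prdm14, 29278 bp at 49257 bp from Klf4, and 21800 bp at 4699 bp and 27423 bp at 99765 bp from Sox2. The domain of 21800 bp near Sox2 had 3.68% of its bases in gaps and coverage of 94.4% and 93.1%.

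Groups of genes were counted by whether the TSS of a member lay in a domain. Over all genes with a strand this was so for 506 of 20330, a share of 2.49%. Gene bodies overlapping a domain made up 5.72% of all genes, and 4.02% had a TSS inside a domain or within 2 kb of it. Across the 20 lists of symbols, 21 of 312 genes (6.73%) had their TSS in a domain and 75 (24.0%) overlapped a domain. Long genes have more room for a domain, and the listed genes had a median length of 28798 bp against 17491 bp for all genes. The lists were chosen with earlier results of these data known, so their counts are descriptions.

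Of 26 pluripotency factors, 2 had their TSS in a domain, Tfcp2l1 and Tbx3, and 7 overlapped one. The shares over all genes were 2.49% and 5.72%. The Tfcp2l1 domain of 43626 bp, at chr1:118619881-118663506, was covered to 77.3% in replicate 1 and 83.8% in replicate 2, and that of Tbx3 (26018 bp) to 77.1% and 76.2%. Trim71, Sall1, Esrrb, Klf5 and Nr5a2 overlapped a domain downstream of or beside their TSS. Klf5, a Krüppel-like factor, had 88.2% of its short gene in a domain of 44392 bp that ran on past it. Nanog, Pou5f1, Sox2 and Klf4 themselves overlapped none.

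Of 22 Polycomb genes 6 overlapped a domain (27.3%), Jarid2, Rybp, Cbx7, Pcgf2, Eed and Phc1, against 5.72% of all genes. None had its TSS in a domain, and in a list of 22 a count of 0 is near the 2.49% over all genes. Rybp, a subunit of variant Polycomb repressive complex 1, had 91.1% of the gene in a domain of 53583 bp that started 1097 bp past the TSS, with coverage of 78.8% and 89.1%. Eed had 86.0% of the gene in a domain with coverage of 62.2% and 75.01%. The catalytic subunits Ezh2 and Rnf2 overlapped none.

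Genes of DNA methylation and of chromatin remodelling followed. Over all genes 5.72% overlapped a domain, at a median gene length of 17491 bp. Median lengths were 82943.5 bp for corepressors and remodellers and 62082 bp for histone acetyltransferases and readers. They were 29828 bp for DNA methylation genes and 31695 bp for H3K4 methylation genes. Longer genes have more room for a domain. Of 14 DNA methylation and demethylation genes, Zfp57 and Dnmt3l had the TSS in a domain, and Tet1, Dnmt3a, Tet2 and Uhrf1 overlapped one without it. Only 10.9% of the Zfp57 gene lay in its domain of 33988 bp, against 73.2% of Dnmt3l in its domain. Of 24 corepressors and remodellers 8 overlapped a domain, among them Ctbp2, Arid1a and Gatad2a, and Zmynd8 had its TSS inside. Of 13 histone acetyltransferases and readers 5 did, including Kat6b. Of 15 genes that write or erase H3K4 methylation, 2 did, Kdm5b and Setd1b. None of the 15 had its TSS in a domain, a count near the 2.49% over all genes. At Setd1b, a subunit of an H3K4 methyltransferase complex, the domain of 20734 bp was covered to 93.3% and 89.7%.

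Signalling genes were spread over several pathways. Over all genes 5.72% overlapped a domain. The lists counted here are of long genes, which have more room for a domain. Their median gene lengths ran from 39491 bp (BMP, NODAL and TGF-beta) to 69048 bp (phosphoinositide enzymes and carriers), against 17491 bp for all genes. Of 15 genes of FGF and ERK signalling, 6 overlapped a domain, including the receptors Fgfr1 and Fgfr2 and the feedback inhibitor Spred2, whose domain of 48506 bp was covered to 89.7% and 94.1%. Of 19 WNT genes 4 did, Tcf7l1 and Lef1, which are DNA-binding partners of beta-catenin, Ctnnb1, which encodes beta-catenin, and the receptor Lgr4. At Ctnnb1 94.95% of the gene lay in a domain covered to 73.2% and 81.7%. Of 20 genes of BMP, NODAL and TGF-beta signalling 4 did, with the TSS of Id1, a target of BMP signalling, inside a domain of 20560 bp. Of 8 listed genes of the LIF and STAT3 pathway only the receptor Lifr did. Lif and Jak3 were not on that list, and each had its TSS in a domain, of 27640 bp and 23151 bp. Of 20 genes of actin and focal adhesion 10 overlapped a domain, including Tns3, Plekha7 and Actn4. Of 25 phosphoinositide enzymes and carriers 5 did, Pitpnc1 being the widest.

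Markers of other cell types were counted in the same way, against the 5.72% of all genes that overlapped a domain. None of 12 endoderm genes and none of 39 Hox genes overlapped one, and the counts were 1 of 12 mesoderm genes (Tbx6), 1 of 12 neuroectoderm genes (Pax6), 1 of 12 fibroblast markers, which would mark feeder cells (Fbln1), and 1 of 14 genes of terminally differentiated tissues (Insl3). Pax6, a transcription factor of the eye and brain, had 91.6% of its gene in a domain of 30844 bp covered to 85.5% and 80.2%. Of 10 trophectoderm genes 3 did, Tfap2c, Tead4 and Tfap2a. In lists of 12 or 14 genes a count of 0 or 1 is near the share over all genes. In multigene families the counts were 0 of 1104 olfactory receptor genes, 0 of 352 vomeronasal receptor genes, 9 of 360 Zfp zinc finger genes and 2 of 68 cytosolic ribosomal protein genes. How reads were placed among near-identical copies is not stated, so the counts for these families are uncertain.

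Hairpins of microRNAs, the precursors of small regulatory RNAs, were also looked up. Of 919 autosomal hairpins 57 (6.20%) lay in domains, 48 of which held at least 1. The 991 domains together take up 1.21% of the autosomes, and 5.72% of protein-coding genes overlapped a domain. Some hairpins lay together in 1 domain, so the 57 are not separate cases. The cluster of miR-183, miR-96 and miR-182, known from sensory cells, lay in a domain of 26462 bp at chr6:30146563-30173024 that overlapped Nrf1 and was covered to 93.3% and 92.3%. The hairpins of the embryonic stem cell cluster miR-290 to miR-295 lay just outside a domain, 1570 to 3717 bp past the edge of the one at chr7:3193236-3217056, which had 23.5% of its bases in gaps and coverage of 76.8% and 65.2%. A selection of mature sequences of both clusters is shown, from RefSeq, with the seed (bases 2 to 8) in capitals. Among those not shown, miR-290a-5p, miR-292a-5p and miR-293-5p have the same seed as each other.
miR-183-5p: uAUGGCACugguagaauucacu
miR-96-5p: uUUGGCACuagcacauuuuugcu
miR-182-5p: uUUGGCAAugguagaacucacaccg
miR-290a-3p: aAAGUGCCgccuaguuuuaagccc
miR-291b-3p: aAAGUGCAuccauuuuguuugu
miR-294-3p: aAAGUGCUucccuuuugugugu
miR-295-3p: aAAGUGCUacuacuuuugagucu
The seeds of miR-294-3p and miR-295-3p are the same, AAGUGCU, and those of miR-290a-3p and miR-291b-3p share all but the last letter with them. No 2 of the first 3 seeds are the same. Further hairpins inside domains included let-7g in a domain of 22473 bp over Wdr82 and Ppm1m, miR-425 and miR-191 in one of 26377 bp at Wdr6, and miR-23b, miR-27b and miR-24-1 in one of 23323 bp over Aopep and Fancc.

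Each domain was then looked up in the 2 replicate peak lists. The replicated list was itself made from the replicate lists, so high coverage follows from the rule and is a description. Median coverage of a domain was 82.2% with the replicate 1 list and 83.6% with the replicate 2 list, a mean of 82.9% ± 1.03 (SD, n = 2). Coverage ran from 50.7% to 99.3% in replicate 1 and from 59.2% to 97.7% in replicate 2, so every domain had over 50% of its bases in peaks of each replicate. After the peaks of each replicate had been joined by the same 1 kb rule, 591 domains were a single piece in replicate 1, 685 in replicate 2, 442 in both and 157 in neither. A piece of at least 20 kb was left in 760 domains in replicate 1, 807 in replicate 2 and 648 in both, and 72 had none in either. The Jarid2 domain was 1 piece of 134585 bp in replicate 2 and 3 pieces in replicate 1, the longest of 51929 bp.

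The class of a domain went with which replicate covered it more. Coverage was higher in replicate 2 in 646 of 991 domains (65.2%), with a median difference, replicate 2 minus replicate 1, of 1.78 percentage points. It was higher in replicate 2 in 420 of 531 gene-body domains (79.1%), by a median of 3.74 points. For the 364 domains with a TSS the count was 170 (46.7%) and the median -0.61 points, and for the 97 with at least 2 TSSs 25 (25.8%) and -2.67 points. In joined domains of 10 to 20 kb the same order held, with 71.3% of gene-body domains and 38.4% of TSS domains higher in replicate 2. The replicate 2 list drew on 1 source file that the replicate 1 list did not, and its part in this was not tested.

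Single domains differed more. The 5 largest differences were at domains in gene bodies that held no TSS. At Trip12, a ubiquitin ligase, 53.1% of 27214 bp was covered in replicate 1 and 77.2% in replicate 2, a difference of 24.1 points. Cobl, an actin nucleator, had 61.6% and 84.0% in a domain of 22711 bp, apart from another domain that holds its TSS. Zfp516 had 57.5% and 79.6%, Dyrk1a, a kinase, had 71.4% and 93.4%, and Zbtb44 had 50.7% and 72.0%. In the other direction, the domain with the starts of Tcap and Pnmt had 76.5% in replicate 1 and 59.2% in replicate 2, and that of Wnt7b, a WNT ligand, had 79.6% and 65.3%. The smallest differences were near Kcnk5, at 80.5% in both, near Zkscan17, at 82.5% in both, and at Tmem231 with Gabarapl2, at 81.2% in both.

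**Figure D4:**
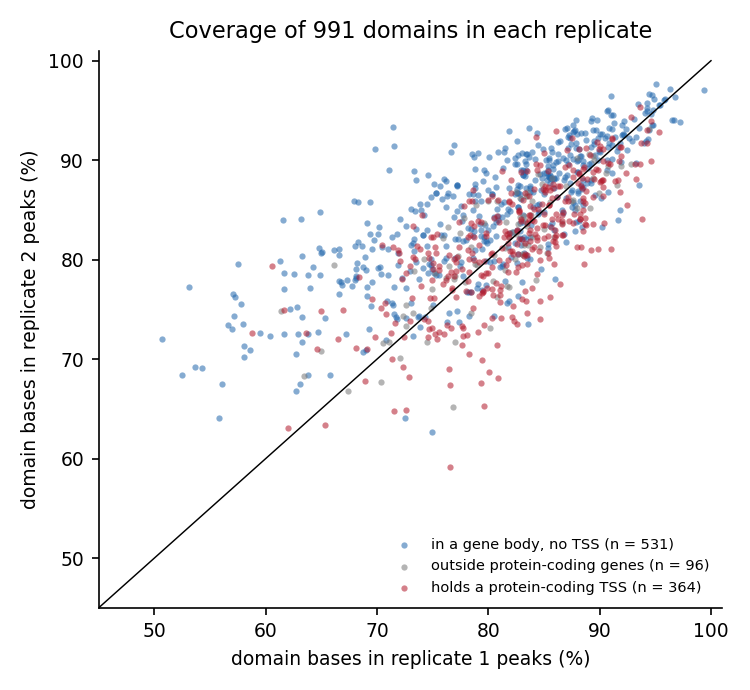
Percent of the bases of each of the 991 domains in peaks of replicate 1 (horizontal) and replicate 2 (vertical), coloured by class, with the line of equal coverage. Domains in gene bodies lie mostly above the line (420 of 531), and those with a TSS lie on both sides of it (170 of 364 above).

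The median domain had 11.1% of its bases in internal gaps, with quartiles of 7.79% and 15.01%, and narrower domains 13.7% at 10 to 20 kb and 15.1% at 5 to 10 kb. Only the domain in Agpat4, an acyltransferase of lipid synthesis, had no gap: it was a single peak of 23737 bp, covered to 94.4% and 96.6%. Smad7, an inhibitor of TGF-beta signalling, had 0.329% of 28240 bp in gaps, and Ski, a corepressor of SMAD signalling, had 0.894% of 39823 bp in gaps. The most broken domains were at Tedc2 with 29.6%, Kif3c with 28.6% and Dgke with Gm525 at 28.4%. By the authors' signal value per peak, peaks in domains had a median of 6.03 against 4.18 for other autosomal peaks. Of the 1000 highest, 471 were in domains, which hold 5.72% of all autosomal replicated peaks. Peaks in domains were also wider, with a median of 1259 bp against 679 bp, and the part of width in the signal was not tested.

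The domains were unevenly spread. Chromosome 11 held 109, or 0.894 per Mb, followed by chromosome 4 with 96 and chromosome 2 with 84, while chromosome 13 held 20, or 0.166 per Mb. All autosomes together had 0.403 per Mb. Gene density went with this only in part, with a Spearman rho of 0.71 and a Pearson r of 0.67 over 19 chromosomes, which share both libraries. Per 100 genes the values were 7.60 on chromosome 15 and 7.23 on chromosome 4, and 2.41 on chromosome 13 and 2.56 on chromosome 7, against 4.80 overall. Chromosome 13 nevertheless held the second widest domain, in Jarid2.

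**Figure D5:**
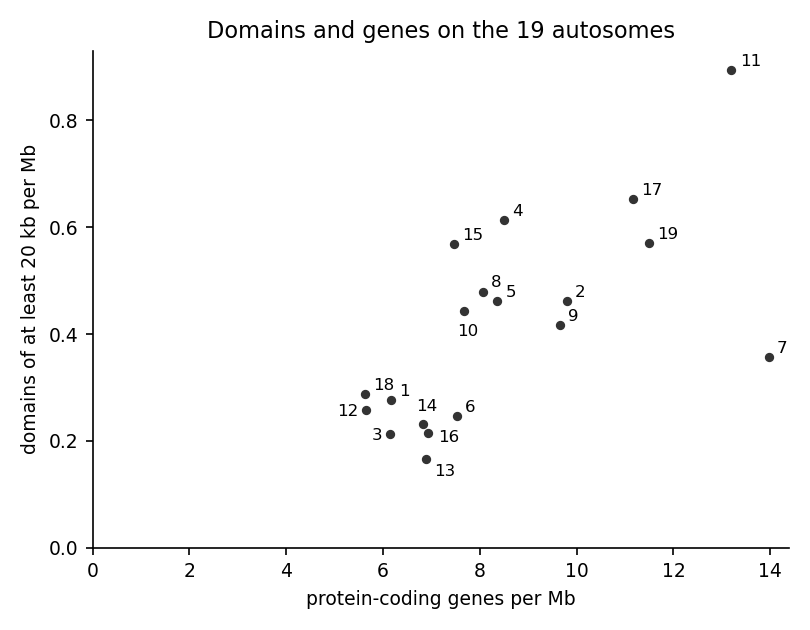
Protein-coding genes per Mb (horizontal) against domains of at least 20 kb per Mb (vertical) for the 19 autosomes, each labelled by its number. Chromosome 11 is highest at 0.894 per Mb, and chromosome 7 has the most genes per Mb and 0.358 domains per Mb.

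Within chromosomes the domains were clustered. Of 2470 windows of 1 Mb, 1920 (77.7%) held none, and 43 windows with at least 4 held 218 of the domains. The most in a window was 8, reached on chromosome 4 around Ahdc1, Wasf2 and Arid1a, on chromosome 10 around Sbno2 and Gadd45b, on chromosome 11 around Msi2, and on chromosome 17 around Ppard and Fkbp5. Within 50 kb of another domain lay 332 domains (33.5%), in 141 clusters. A cluster of 5 spanned 242074 bp from Fgr and Ahdc1 to Wasf2, with 79.3% of it in domains. The distance from a domain edge to the next replicated peak had a median of 1901 bp, and in 53.2% of edges it was within 2 kb, so many domains would grow with a wider joining gap.

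The mm9 lists, which hold broad peaks called in steps of 200 bp, gave a second view of the same libraries. Joined in the same way they gave 1977 domains of at least 20 kb for replicate 1, 1991 for replicate 2 and 2453 for the series list. Of 1032 genes overlapping an mm10 domain that could be matched by symbol, 95.9%, 94.9% and 97.4% overlapped such an mm9 domain, against 8.56%, 7.51% and 11.6% of 16327 other genes. The Pitpnc1 domain was 135600 bp in replicate 1 and 135000 bp in replicate 2. The Jarid2 domain was broken there, with 90600 bp and 39400 bp, and at Capzb, which encodes an actin capping protein, a domain of 66464 bp on mm10 was at most 24400 bp and 20200 bp. These lists belong to the same samples, so they are not independent of the mm10 lists.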

How the data were processed

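H3K4me1 ChIP-seq of 2 biological replicates was used as peak lists. Per the read-me lists, narrowPeak files on mm10 (1 per replicate, 1 pooled, 1 of replicated peaks) and broadPeak files on mm9 were deposited by the authors. Aligner and peak caller: not given in the sources used here. The signal value and the −log10 q of each peak are as the authors deposited them, and were used only to describe or filter peaks within a list. The replicate 2 and pooled lists also drew on 1 source file, of unstated role, which is absent from the sources of the replicate 1 list. Without counts in the lists, depth is unknown, and nothing that needs it was computed. Mean and SD over replicates describe these 2 libraries.

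Autosomal peaks of the replicated list no more than 1 kb apart were joined, and domains of at least 20 kb were kept. Genes came from RefSeq on GRCm38.p6. Strands came from the RefSeq promoter table (16456 genes) or from GENCODE vM1 by symbol (3510) or synonym (364), and 331 of 20661 protein-coding genes had none and were left out of TSS counts. The TSS is the 5′ end of the gene record. Promoter sequences, of which none were given for chromosome 18, were used where they began within 100 bp of it. No mm10 genome was used and no coordinate was converted between builds. Coverage is the percent of a domain in the peaks of a replicate.

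The domains, the 25 gene lists and the naming rule were chosen with earlier results of these data known. Named were the 15 widest domains, the 5 with most TSSs (3 are described, and the others held fewer), the 5 widest outside genes, those with the 5 largest and 3 smallest coverage differences and the 3 largest and smallest gap shares, those next to the 20 kb limit, the 5 genes with most domains or domain bases, and up to 4 members of each list with a domain and 2 without. Some of these are given only by count or are not reported here. Domains named for their promoter sequence, for a microRNA, at Lif and Jak3, or near Sox2, Klf4 and Prdm14 were chosen after their values were seen. Alternatives were other joining gaps, other minimum widths, the pooled list, each replicate alone, a −log10 q of at least 2, the mm9 list, a TSS within 2 kb, and, added after the data were seen, any promoter of the RefSeq table. Joining and coverage were tested on simulated intervals against base-by-base arrays. Tools were Python 3.11.15, pandas 2.3.3, numpy 2.4.6, scipy 1.17.1 and, for figures, matplotlib 3.10.9.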

Additional observations from a re-analysis of the deposited data

How the results depend on the processing

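No paired analysis was possible because the 2 replicates form a single group. The number of domains, 991, was 425 with gaps of up to 500 bp, 2206 with gaps of up to 2 kb and 2453 with the mm9 series list, and 885 to 980 from a single replicate. The share overlapping a protein-coding gene stayed between 88.4% and 91.5% except at a minimum width of 30 kb, where it was 93.1%. The share holding a TSS, 36.7%, was 13.4% with 500 bp gaps, 63.7% with 2 kb gaps, 57.6% counting a TSS within 2 kb, and 27.1% to 42.8% from a single replicate. The share of domain bases downstream of the TSS, 67.8%, was 54.1% with 500 bp gaps, 71.8% with 2 kb gaps, 65.3% at 15 kb, 70.1% at 30 kb and 65.0% to 68.1% from a single replicate. The median share in internal gaps, 11.1%, was 5.28% and 21.4% with 500 bp and 2 kb gaps, 13.3% in the pooled list, 11.8% at 15 kb, 9.04% at 30 kb and 15.8% to 16.3% from a single replicate. Median coverage, 82.9%, was 89.8% and 71.7% with 500 bp and 2 kb gaps, 79.0% in the pooled list, 81.7% at 15 kb, 85.2% at 30 kb and 83.7% to 84.2% from a single replicate covering its own domains. Listed genes counted rose from 21 to 75 when any overlap with the gene body counted. A −log10 q of at least 2 moved none of the 6 domain values beyond the spread used, and any promoter of the RefSeq table, added after the data were seen, gave a TSS share of 37.2%. Smaller joining gaps split domains at TSS gaps by construction. The cause of the other shifts was not tested, and without counts the part of depth cannot be measured.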
